A study of Mus musculus with 36 samples.

Results

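The atrium of the fetal mouse heart was compared between embryonic day (E) 18.5, close to birth, and E16.5. The comparison used 6 of the 36 Affymetrix arrays of a C57BL/6 time series of heart development, the 3 atrial arrays titled E18.5 and the 3 titled E16.5, and all probe sets on them. The series ran from E10.5 to E18.5, with atria and ventricles hybridised separately from E12.5 on. Alongside the atrial groups, the 3 ventricular arrays of E18.5 and the 3 of E16.5 gave the change in the other chamber, and the 9 atrial arrays of E12.5, E13.5 and E14.5 gave earlier levels.

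The E18.5 atria and the E16.5 atria were C57BL/6 tissue with no treatment and no engineered allele in the labels. The E16.5 arrays are so named in their titles but carry day 15.5 in their descriptions, and the title was followed. The labels do not say how many hearts went into an array or whether replicates came from separate litters, so p-values measure the spread between these samples, which may be technical. Atrial tissue is a mixture of muscle, endocardium, blood and other cells, and in such bulk samples fewer cells of a type and less RNA per cell cannot be told apart.

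In the days before birth the heart takes over a growing load, and its muscle shifts from growth by division toward mature contraction and metabolism. The blood within it changes as well: primitive red cells, which carry embryonic globins, give way to red cells from the fetal liver with adult globins. Interferons act through cell-surface receptors and Janus kinases on a transcription factor complex that contains IRF9, which binds promoters with repeated GAAA letters and switches on antiviral genes such as the IFIT, GBP and OAS families.

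The 6 atrial arrays were alike in atrial genes. The score of 18 atrial chamber genes, their mean log2 intensity above the average of all 36 arrays, was 1.29, 1.30 and 1.34 on the E18.5 arrays and 1.34, 1.25 and 1.22 on the E16.5 arrays. Other tissues differed between arrays of the same day. The 11 measured lung and foregut genes had scores of 2.04 on E18.5 atrial array 3 and 1.74 on E16.5 atrial array 3, against -0.39 to 0.18 on the other 4, and their summed intensity was 17077 and 10276 on those arrays, against 1450 to 3276. The lung surfactant gene Sftpc alone read 10949 and 5694 there, against 153 to 334 elsewhere. The 14 ventricular chamber genes had scores of 0.24 on E18.5 atrial array 1 and -0.04 on E16.5 atrial array 2, against -2.12 to -1.47 on the other 4. E16.5 atrial array 2 also had the highest scores for liver genes, 1.28, and for skeletal muscle genes, 1.10. E16.5 atrial array 1 stood apart in another way: across probe sets its log2 values correlated at 0.975 to 0.978 with the E18.5 atrial arrays and at 0.961 to 0.969 with the other E16.5 atrial arrays. No pair of arrays held identical values.

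**Figure D1:**
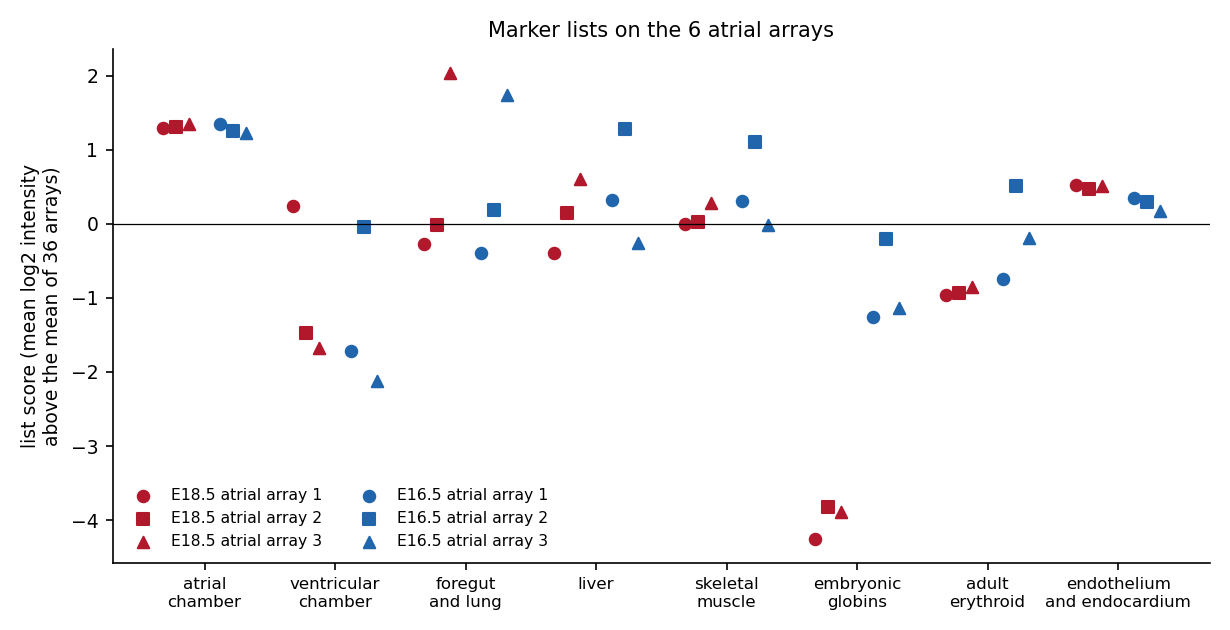
Scores of marker gene lists on the 6 atrial arrays, as mean log2 intensity above the average of 36 arrays (vertical axis), for 8 lists (horizontal axis); red marks are E18.5 arrays and blue marks E16.5 arrays, with 1 symbol per replicate number. Atrial genes lay together, at 1.22 to 1.34, while lung, ventricular, liver and skeletal muscle genes were high on single arrays, and embryonic globins separated the days, at -4.26 to -3.82 on the E18.5 arrays and -1.26 to -0.20 on the E16.5 arrays.

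Few probe sets were called over these days, and their number moved with the arrays used. In a linear model of all 36 arrays (limma), 86 of 27256 probe sets differed between E18.5 and E16.5 atria at a Benjamini-Hochberg adjusted p below 0.05, which is 0.316% of those tested, with 43 higher and 43 lower at E18.5. With each gene represented by its probe set of highest mean, 50 of 12983 genes were called, or 0.385%, with 25 higher and 25 lower (0.193% each). The 86 probe sets covered 70 distinct genes, some only through a probe set other than that of highest mean, and 12 had no symbol or several. At an unadjusted p below 0.05 there were 2654 probe sets (9.74%) and 1330 genes (10.2%). Fitted on the 6 atrial arrays alone, limma called none, with 2552 at an unadjusted p below 0.05. Of the 50 genes called with all 36 arrays, 23 differed by at least 2-fold, 15 higher and 8 lower. In all 50 the 3 E18.5 values lay apart from the 3 E16.5 values, as they did in 16.6% of all genes. The median log2 difference over all genes was 0.004, and the 5th and 95th percentiles were -0.36 and 0.42. The earlier ages entered the choice of probe sets tested and the shared estimate of spread, but not the difference itself. In 45 of the 50 genes all 3 E18.5 values also lay beyond all 9 values of E12.5 to E14.5. They did so in the same direction, as was true of 14.0% of all genes. The same E18.5 values had picked the 50 genes, so this is a description.

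Many of these calls were lost when a group had 2 arrays instead of 3. The size of the difference moved less in some genes than in others. That of Clu lay between 1.04 and 1.37 (1.16 with all arrays) and that of Ifit3 between 2.24 and 3.04 (2.52). That of Tcf20 lay between -2.29 and -1.09 (-1.65). With each of the 6 atrial arrays left out in turn, 8 genes kept their call every time: Hba-x, Hbb-y, Usp18, Ifitm3, Gbp3, Irf9, Scgb3a1 and Ifit1. Without E18.5 atrial arrays 1, 2 and 3 in turn, 30, 18 and 11 of the 50 were still called. Without E16.5 atrial arrays 1, 2 and 3, the numbers were 50, 12 and 9. Leaving out E16.5 atrial array 1 raised the number of called genes to 221. On that array the 50 genes tended to sit on the E18.5 side: it was the E16.5 array nearest to the E18.5 mean in 45 of them (90.0%), against 45.8% of all genes. Without the 2 arrays with high lung genes 5 genes were called, 4 of them among the 50 (Hba-x, Hbb-y, Gbp3 and Usp18). Without the 2 arrays with high ventricular genes 15 were called, 14 of them among the 50.

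The genes that rose were led by interferon-response genes. In a list of 24 genes of antigen presentation, interferon response and complement, 3 of 14 measured members rose (Ifit3, Ifit1 and Ifitm3) and none fell, where 0.193% of all genes rose. The list's median difference was 0.49, against 0.00 for all genes. Of its 14 members 13 were above 0, as were 6588 of all 12983 genes. This list was itself chosen with earlier results of these data known. The families were also read by symbol, a grouping made after the values were seen. Those members named below that are outside the list were likewise chosen after the values were seen. Of 75 measured members of 13 interferon-related families, 9 rose and none fell, with a median difference of 0.32. Their groups lay apart in 32 of 75 on the higher side and 1 on the lower side, against 8.02% and 8.53% of all genes.

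Usp18, a protease that removes ISG15 from proteins and dampens type I interferon signalling, was the most stable of them. Its intensity was 412, 418 and 475 in E18.5 atria, against 157, 136 and 136 in E16.5 atria. All 3 E18.5 values were above the highest of the 12 earlier atrial arrays, 260. The log2 difference was 1.496 ± 0.20 (SE; adjusted p = 0.00016), a 2.82-fold rise, and the highest adjusted p with an array left out was 0.0038.

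Ifit1, a cytoplasmic protein that binds viral RNA, averaged 292 ± 47.4 in E18.5 atria and 84.8 ± 4.3 in E16.5 atria (SD, n = 3 each). It rose by 1.59 ± 0.27 on the log2 scale (adjusted p = 0.00403), and E16.5 values lay within 80.6 to 89.2. Its relative Ifit3 read 128, 289 and 279 in E18.5 atria, against 68.2, 12.4 and 11 in E16.5 atria. The rise of 2.52 ± 0.55 (adjusted p = 0.0366) was the largest of any called gene. It rested on low intensities, and the call was lost without E18.5 atrial array 2 or 3 or without E16.5 atrial array 2 or 3, with a highest adjusted p of 0.238. The 3 other measured IFIT genes, Ifit2, Ifit1bl1 and Ifit1bl2, had differences of 0.14 to 0.33 and were not called.

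Gbp3, a guanylate-binding protein that acts against intracellular microbes, read 470, 411 and 317 in E18.5 atria, against 198, 92.8 and 99.8 in E16.5 atria. Here E16.5 atrial array 1 was the highest of its day. Gbp3 rose by 1.55 ± 0.24 (adjusted p = 0.00145), and by 1.86 without that array. Gbp6 and Gbp7, with differences of 2.30 (adjusted p = 0.0722) and 0.99 (adjusted p = 0.0893), were not called, though their groups did not overlap either.

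Irf9, the DNA-binding subunit of the interferon-activated factor ISGF3, read 550.2, 652.5 and 721.0 in E18.5 atria, against 368.9, 364.3 and 340.8 in E16.5 atria. The groups were well separated, and all 12 earlier atrial values lay at or below 462. The rise was 0.80 ± 0.13 (adjusted p = 0.00181). Its partner gene Stat2 had a difference of 0.38 (adjusted p = 0.29), and Irf7, an interferon-induced regulator of interferon genes, one of 1.34 (adjusted p = 0.13). Neither was called.

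Ifitm3, a membrane protein that hinders virus entry, read 5081.5, 5204.0 and 5944.7 in E18.5 atria, against 3385.5, 2683.8 and 1889.8 in E16.5 atria. It rose by 1.06 ± 0.16 (adjusted p = 0.0012), and its mean per age was 1531 (E12.5), then 2023 (E13.5), 2081 (E14.5), 2653 (E16.5) and last 5410.1 (E18.5). Other effectors rose with less stable calls. Oasl2, a relative of the oligoadenylate synthetases, rose by 1.42 ± 0.28 (adjusted p = 0.0181), with intensities of 652, 901 and 964 in E18.5 atria, against 404, 356 and 185 in E16.5 atria. Ifi27l2a, a small interferon-induced mitochondrial protein, rose by 1.36 ± 0.31 (adjusted p = 0.0413). Igtp, an immunity-related GTPase, rose by 0.67 ± 0.12 (adjusted p = 0.00698). Their highest adjusted p with an array left out was 0.181 for Oasl2, 0.283 for Ifi27l2a and 0.0911 for Igtp.

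**Figure D2:**
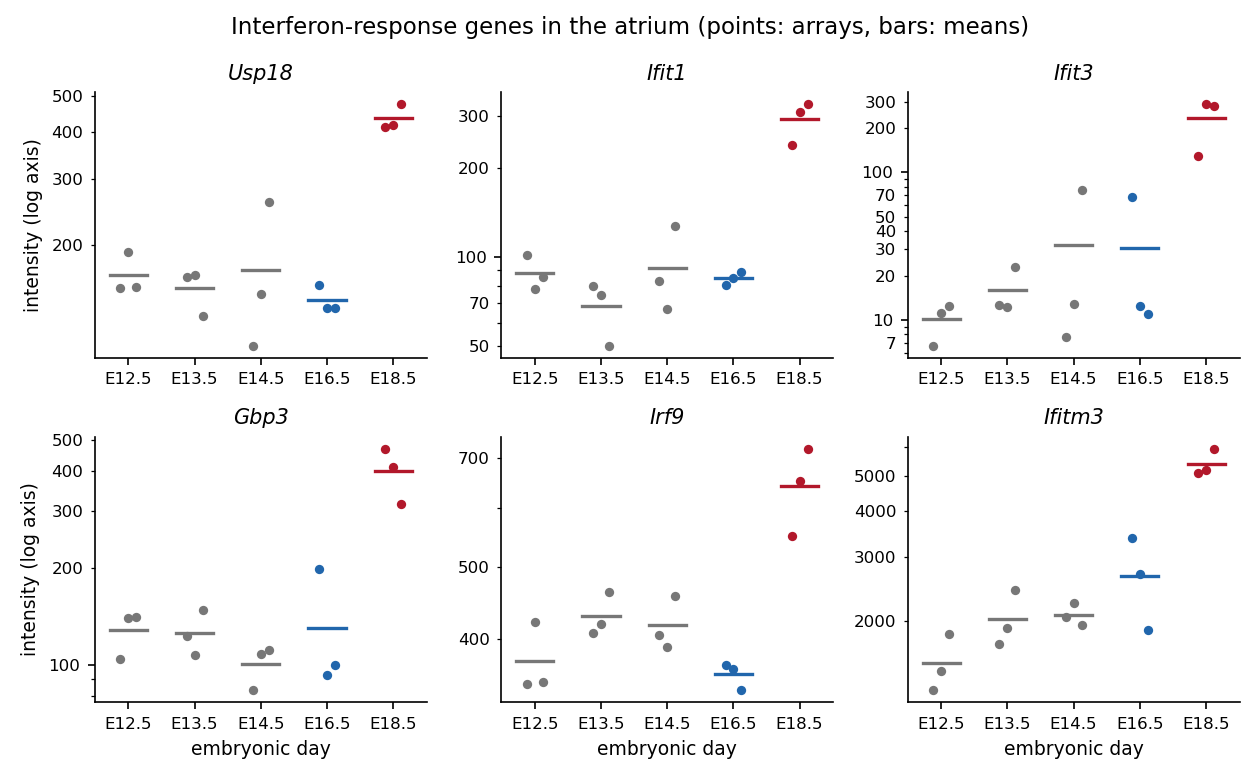
Intensity (vertical axes, log scale) of 6 interferon-response genes on each atrial array by embryonic day; points are arrays, bars are means of 3 arrays, with E18.5 in red, E16.5 in blue and earlier ages in grey. In each gene the 3 E18.5 arrays lay above all 12 earlier arrays; for Usp18 they read 412 to 475, against at most 260.

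No gene upstream of these effectors other than Irf9 passed the test. Of 10 interferon genes on the array 3 were measured, Ifnb1, Ifna1 and Ifnz, all dim and not called, with differences of 0.06 to 0.34. None of 9 receptor and kinase genes was called, and their median difference was 0.02. Ifnar1, a chain of the type I interferon receptor, read 553.5, 572.5 and 572.0 in E18.5 atria, against 613.1, 577.9 and 574.8 in E16.5 atria. Of 11 sensors of foreign nucleic acid and microbes none was called (median 0.31). Apart from these upstream genes, the 8 class I antigen presentation genes also had no call (median 0.35). Groups lay apart on the higher side in 5 of them and on the lower side in 0, against 8.02% and 8.53% of all genes. Within that group H2-D1, a classical class I chain, had a difference of 0.65 (adjusted p = 0.137), while B2m, its shared partner chain, had one of -0.07 (adjusted p = 0.914).

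The number of family members called moved with the arrays used. It lay between 5 and 14 when each atrial array was left out in turn, with 14 without E16.5 atrial array 1. Without the 2 arrays with high lung genes it was 2 (Gbp3 and Usp18), while Ifit1, Ifitm3 and Irf9 had differences of 1.53, 0.77 and 0.68 there (adjusted p = 0.164, 0.164 and 0.166). Without the 2 with high ventricular genes it was 5. The ventricles, which share no array with the atria, also had positive differences for all 9 family members that rose, from 0.39 (Irf9, 0.80 in the atrium) to 1.65 (Ifi27l2a, 1.36 in the atrium). Whether ventricles and atria came from the same hearts was not tested, so the chambers may not be independent. Usp18 averaged 457 ± 82.3 in E18.5 ventricles and 178 ± 21.2 in E16.5 ventricles (SD, n = 3 each), a log2 difference of 1.28 ± 0.20, and Ifit1, Gbp3 and Ifitm3 had ventricular differences of 1.10 ± 0.27, 1.15 ± 0.24 and 1.23 ± 0.16 (SE). Among possible sources of such genes, the 21 macrophage and leukocyte genes had a median atrial difference of 0.19 with no call, and their scores were 0.45 to 0.85 on the E18.5 arrays and 0.35 to 0.54 on the E16.5 arrays; their part in the interferon result was not tested.

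The promoters of several of these genes share letters of the kind that ISGF3 binds. RefSeq windows of 300 bases (250 before and 50 after the start, build GRCm38.p6) were at hand for 18 of the 25 genes that rose and 20 of the 25 that fell. A search on both strands for GAAA followed, after 2 letters of any kind, by a second GAAA (TTTC likewise on the reverse) found these letters in 7 of the 18 (38.9%), namely Ifit1, Ifit3, Gbp3, Bst2, Ifitm3, Igtp and Lgals9. They were found in 1 of the 20 that fell (Hbb-y) and in 3.99% of 27025 genes. Windows of 4 genes that rose are shown because they carry the match, which is in capitals; in Gbp3 and Bst2 a pair of overlapping matches forms 1 run. A match is a description of these letters and was not tested for binding. The letters were chosen with the called genes known, so their share among the genes that rose is a description too.
Ifit1, chr19:34640639-34640938, plus strand: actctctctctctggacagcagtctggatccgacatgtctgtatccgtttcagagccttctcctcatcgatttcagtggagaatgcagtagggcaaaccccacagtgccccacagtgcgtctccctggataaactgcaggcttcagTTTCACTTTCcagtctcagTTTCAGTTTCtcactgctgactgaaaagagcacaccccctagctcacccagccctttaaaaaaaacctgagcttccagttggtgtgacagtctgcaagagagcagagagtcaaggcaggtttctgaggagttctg
Ifit3, chr19:34583279-34583578, plus strand: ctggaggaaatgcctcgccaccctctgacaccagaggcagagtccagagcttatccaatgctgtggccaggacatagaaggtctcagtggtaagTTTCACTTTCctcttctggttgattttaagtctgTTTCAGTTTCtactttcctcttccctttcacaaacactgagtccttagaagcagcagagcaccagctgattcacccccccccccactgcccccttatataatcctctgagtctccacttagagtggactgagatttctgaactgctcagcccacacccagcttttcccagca
Gbp3, chr3:142559794-142560093, plus strand: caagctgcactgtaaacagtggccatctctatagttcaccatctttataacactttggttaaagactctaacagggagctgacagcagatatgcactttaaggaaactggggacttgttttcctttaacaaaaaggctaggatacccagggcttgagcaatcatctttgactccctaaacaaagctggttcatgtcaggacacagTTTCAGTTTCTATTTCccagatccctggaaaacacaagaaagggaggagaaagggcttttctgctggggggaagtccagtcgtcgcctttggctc
Bst2, chr8:71537423-71537722, minus strand: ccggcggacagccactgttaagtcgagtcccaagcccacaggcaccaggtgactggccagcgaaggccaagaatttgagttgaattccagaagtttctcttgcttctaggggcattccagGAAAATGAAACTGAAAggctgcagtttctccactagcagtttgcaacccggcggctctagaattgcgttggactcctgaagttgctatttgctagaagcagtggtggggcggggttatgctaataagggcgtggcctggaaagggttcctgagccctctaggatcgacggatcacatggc
In Ifit1 the matches began 104 and 85 bases before the start, and in Ifit3 they began 156 and 122 bases before it. In Gbp3 they lay 45 and 39 bases before the start of the window shown, while its other window held no match. In Bst2 they lay 130 and 124 bases before the start. Irf9 and Oasl2 had windows without the match, and Usp18 had no window. Bst2, or tetherin, which holds budding viruses at the cell surface, rose by 0.88 ± 0.20 (adjusted p = 0.0413), with intensities of 560.7, 705.5 and 614.3 in E18.5 atria, against 406.3, 364.6 and 244.7 in E16.5 atria.

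The genes that fell were led by the embryonic globins. Hba-x, the embryonic zeta-type alpha globin, read 147, 217 and 165 in E18.5 atria, against 1221, 4347 and 3466 in E16.5 atria. Every E18.5 value lay far below every earlier atrial one, the lowest of which was the 1221 of E16.5 atrial array 1. Hba-x fell by 3.80 ± 0.50 on the log2 scale (adjusted p = 0.00016), a 13.9-fold difference.

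Hbb-y, the embryonic epsilon-type beta globin, read 569, 1070.3 and 1085 in E18.5 atria, against 4020, 13537 and 9746 in E16.5 atria. It fell by 3.19 ± 0.36 (adjusted p = 1.46e-05), 9.13-fold, and its other 2 probe sets, also called, had differences of -3.16 and -3.17. The mean was between 14031 and 14902 on each of the 3 earliest atrial days, 9101 on the E16.5 arrays and 908 on the E18.5 arrays. Both genes stayed called in every fit that left out an array, with highest adjusted p of 0.00536 for Hba-x and 0.000704 for Hbb-y. Hbb-bh1, the third embryonic globin, read 6.1, 4.7 and 6.9 in E18.5 atria, against 210.0, 158 and 26 in E16.5 atria, and was not called (adjusted p = 0.575).

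The windows of both globins are shown with the letters CACCC and CCAAT in capitals, a pair of short elements known from globin promoters. Across all genes these letters are common: CACCC, or GGGTG on the reverse, is in the windows of 59.8% of genes and CCAAT, or ATTGG on the reverse, in 41.1%.
Hba-x, chr11:32276350-32276649, plus strand: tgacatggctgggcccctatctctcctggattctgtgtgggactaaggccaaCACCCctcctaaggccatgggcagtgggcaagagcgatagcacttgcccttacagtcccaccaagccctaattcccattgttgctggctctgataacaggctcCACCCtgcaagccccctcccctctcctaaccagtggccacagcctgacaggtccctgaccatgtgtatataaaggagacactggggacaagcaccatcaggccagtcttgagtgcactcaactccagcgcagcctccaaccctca
Hbb-y, chr7:103853158-103853457, minus strand: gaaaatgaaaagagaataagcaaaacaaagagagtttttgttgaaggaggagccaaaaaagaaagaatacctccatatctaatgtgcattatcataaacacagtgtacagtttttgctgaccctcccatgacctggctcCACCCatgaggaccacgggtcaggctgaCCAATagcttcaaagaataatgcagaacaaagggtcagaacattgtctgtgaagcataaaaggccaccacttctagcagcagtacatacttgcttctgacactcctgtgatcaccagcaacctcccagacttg
Hba-x held CACCC at 198 and 95 bases before the start and no CCAAT. Hbb-y held CACCC at 111 bases and CCAAT at 83 bases before it.

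Slc25a37, or mitoferrin, which brings iron into mitochondria for haem synthesis, read 1324, 1145 and 1356 in E18.5 atria, against 2647, 10140.2 and 4846 in E16.5 atria. It fell by 1.98 ± 0.43 (adjusted p = 0.0355), and the 3 E16.5 values spread almost as widely as the difference itself. The call was lost without any 1 of 5 of the 6 arrays, with a highest adjusted p of 0.32. None of 12 measured genes of adult red cells was called (median -0.46). Only 1 of the 12 was above 0, where 6588 of all 12983 genes were. Groups lay apart on the lower side in 3 of the 12, against 8.53% of all genes. The adult beta globin Hbb-b2 had a difference of -1.31 (adjusted p = 0.282). The score of the 12 genes was highest on E16.5 atrial array 2, at 0.51, against -0.96 to -0.19 on the other 5. The band 3 anion exchanger Slc4a1 read 229, 187 and 272 in E18.5 atria, against 563, 6121 and 1551 in E16.5 atria (log2 difference -2.86, adjusted p = 0.0766), and the haem enzyme Alas2 read 2521.1, 2182.1 and 2498.5 in E18.5 atria, against 4050.6, 14161.5 and 6317.3 in E16.5 atria (difference -1.57, adjusted p = 0.205). In the ventricles Hba-x averaged 87.3 ± 54.3 at E18.5 and 580 ± 301 at E16.5, and Hbb-y 266 ± 151 at E18.5 and 2931 ± 1608 at E16.5 (SD, n = 3 each).

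**Figure D3:**
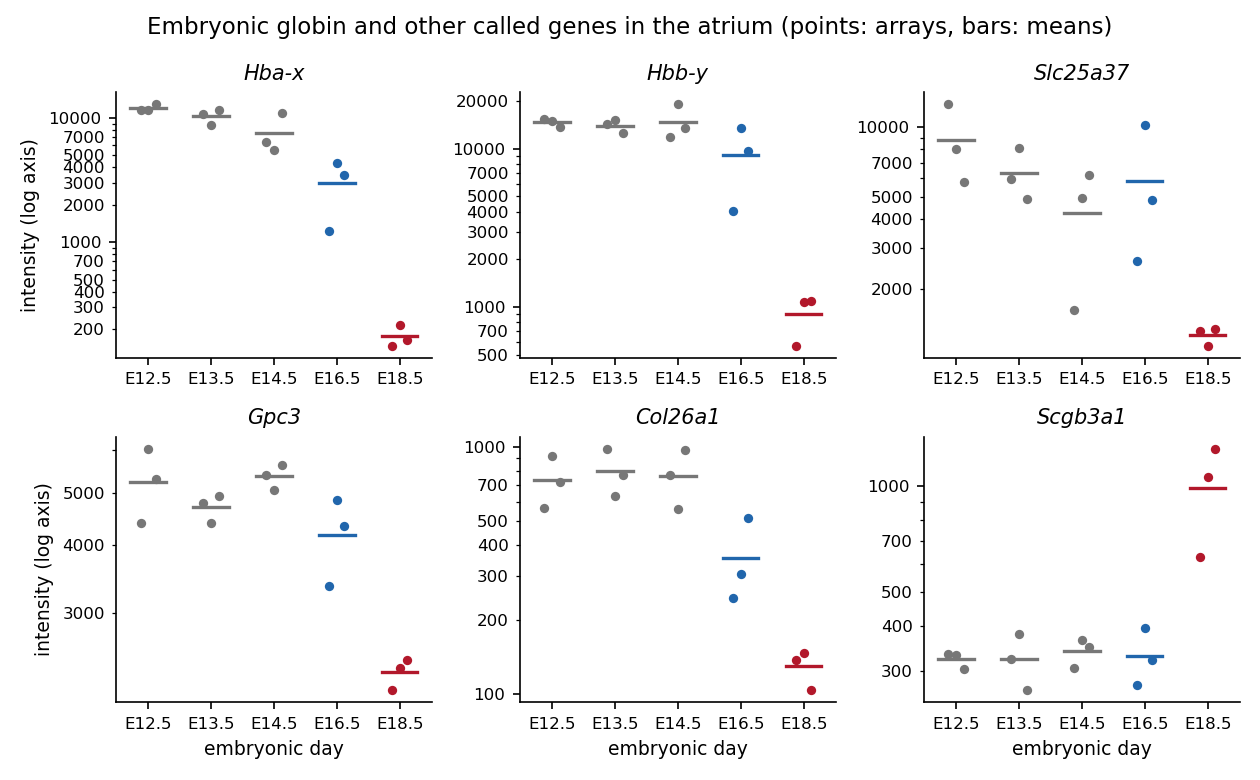
Intensity (vertical axes, log scale) of Hba-x, Hbb-y, Slc25a37, Gpc3, Col26a1 and Scgb3a1 on each atrial array by embryonic day; points are arrays, bars are means of 3 arrays, with E18.5 in red, E16.5 in blue and earlier ages in grey. The first 5 were lowest at E18.5, where Hba-x read 147 to 217, against at least 1221 on every earlier array, and Scgb3a1 was highest there.

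Other called genes were of mixed kinds. Scgb3a1, a secretoglobin known from airway epithelium, read 629, 1059 and 1274 in E18.5 atria, against 274, 395 and 321 in E16.5 atria. It rose by 1.49 ± 0.24 (adjusted p = 0.00184), 2.81-fold, and the 12 earlier atrial arrays lay between 264 and 395. Its intensity in ventricles was 357 ± 80.9 at E18.5 and 328 ± 63.7 at E16.5 (SD, n = 3 each). Of the arrays with high lung genes, E18.5 atrial array 3 had the highest value of its day and E16.5 atrial array 3 the middle one. Without those arrays its difference was 1.27 (adjusted p = 0.164), and without the arrays with high ventricular genes 1.91 (adjusted p = 0.00209). Whether airway tissue had a part in it was not tested.

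Clu, the secreted chaperone clusterin, read 4365.0, 4692.1 and 5491.2 in E18.5 atria, against 2903.5, 1831.7 and 1882.7 in E16.5 atria. It rose by 1.16 ± 0.23 (adjusted p = 0.0193), and its other 3 probe sets had differences of 1.07 to 1.12, 2 of them called. The ventricular difference was -0.08 ± 0.23. A2m, the plasma protease inhibitor alpha-2-macroglobulin, rose by 1.12 ± 0.23 (adjusted p = 0.0199), with intensities of 491.1, 673.5 and 562.0 in E18.5 atria, against 423.7, 247.0 and 153.1 in E16.5 atria. Socs2, a suppressor of growth hormone signalling, rose by 1.004 ± 0.20 (adjusted p = 0.0181), and Fuca2, a secreted fucosidase, by 1.04 ± 0.19 (adjusted p = 0.00863). Clu, A2m, Socs2 and Fuca2 each lost their call when any of E18.5 atrial arrays 2 and 3 and E16.5 atrial arrays 2 and 3 was left out, with highest adjusted p of 0.176, 0.212, 0.188 and 0.114.

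Among genes that fell, Gpc3, a glypican that restrains fetal growth, read 2158, 2377 and 2454 in E18.5 atria, against 3360.5, 4852 and 4341 in E16.5 atria. It fell by 0.83 ± 0.15 (adjusted p = 0.00786), and the 12 atrial arrays of earlier ages lay between 3360.5 and 6032. Its ventricular difference was similar, -0.74 ± 0.15. The call was lost without E16.5 atrial array 2 or 3, with a highest adjusted p of 0.0912. Col26a1, a collagen of developing mesenchyme, read 137.7, 146.8 and 103.5 in E18.5 atria, against 243.6, 305.8 and 517.5 in E16.5 atria, and fell by 1.29 ± 0.21 (adjusted p = 0.00236). Only the fit without E16.5 atrial array 3 lost it among the 6 that left out an array, at an adjusted p of 0.0555. All 12 earlier atrial arrays read 244 or more.

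Hs6st2, an enzyme that sulphates heparan chains, read 726.6, 975.2 and 813.6 in E18.5 atria, against 1538, 1835 and 2477 in E16.5 atria, while ventricles averaged 307.5 at E18.5 and 327 at E16.5 (n = 3 each). It fell by 1.18 ± 0.24 (adjusted p = 0.0226). Lxn, the carboxypeptidase inhibitor latexin, fell by 0.92 ± 0.18 (adjusted p = 0.0134), with 1161, 1070.1 and 1080.2 in E18.5 atria, against 1836, 2044 and 2452 in E16.5 atria. The RIKEN transcript D430019H16Rik fell by 2.18 ± 0.42 (adjusted p = 0.0152), with 20, 50.7 and 53.6 in E18.5 atria, against 192, 218 and 315 in E16.5 atria. The groups were clear of each other in each of these 3 genes. Their highest adjusted p with an array left out was 0.181 for Hs6st2, 0.136 for Lxn and 0.135 for D430019H16Rik.

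For 2 other called genes the values ask for care. Tcf20, a transcriptional coregulator, read 411, 64.7 and 141 in E18.5 atria, against 469, 541 and 613 in E16.5 atria, so that E18.5 atrial array 1 lay near the E16.5 arrays (difference -1.65 ± 0.37, adjusted p = 0.0413). Without E18.5 atrial array 2 the difference was -1.09 (adjusted p = 0.279). Slc8a1, the sodium-calcium exchanger of heart muscle, read 1917, 1490 and 1424 in E18.5 atria, against 2727, 2271 and 2618 in E16.5 atria. It fell by 0.66 ± 0.13 (adjusted p = 0.0196) by its probe set of highest mean, but its other 3 probe sets had differences of 0.66, 0.06 and 0.35, none called, and the mean of all 4 gave 0.10. Among called genes named after their values were seen, Msi2, Ddx6, Marcksl1 and Mtfr1l also had probe sets of the opposite sign.

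The direction of most called genes was shared by the ventricle, which may not be independent of the atrium if the same hearts gave both. Of the 50 genes, 47 differed in the same direction between E18.5 and E16.5 ventricles, 24 of the 25 that rose and 23 of the 25 that fell, while 58.6% of all genes did. The difference between the chambers was tested directly, with atrial and ventricular arrays taken as unpaired. No probe set of 27256 was called for it by limma (0.0%), with 1595 (5.85%) at an unadjusted p below 0.05 and a lowest adjusted p of 0.443. The count was also 0 in each alternative run except with array weights, which gave 1, Plcb3 (log2 difference of differences -1.99, adjusted p = 0.0293). Among the 50 genes the lowest adjusted p for a chamber difference was 0.648. Scgb3a1, Clu and 4930512H18Rik, with atrial differences of 1.49, 1.16 and 1.17 beside ventricular ones of 0.11, -0.08 and 0.03, were therefore not shown to differ between chambers (adjusted p = 0.709, 0.709 and 0.747).

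**Figure D4:**
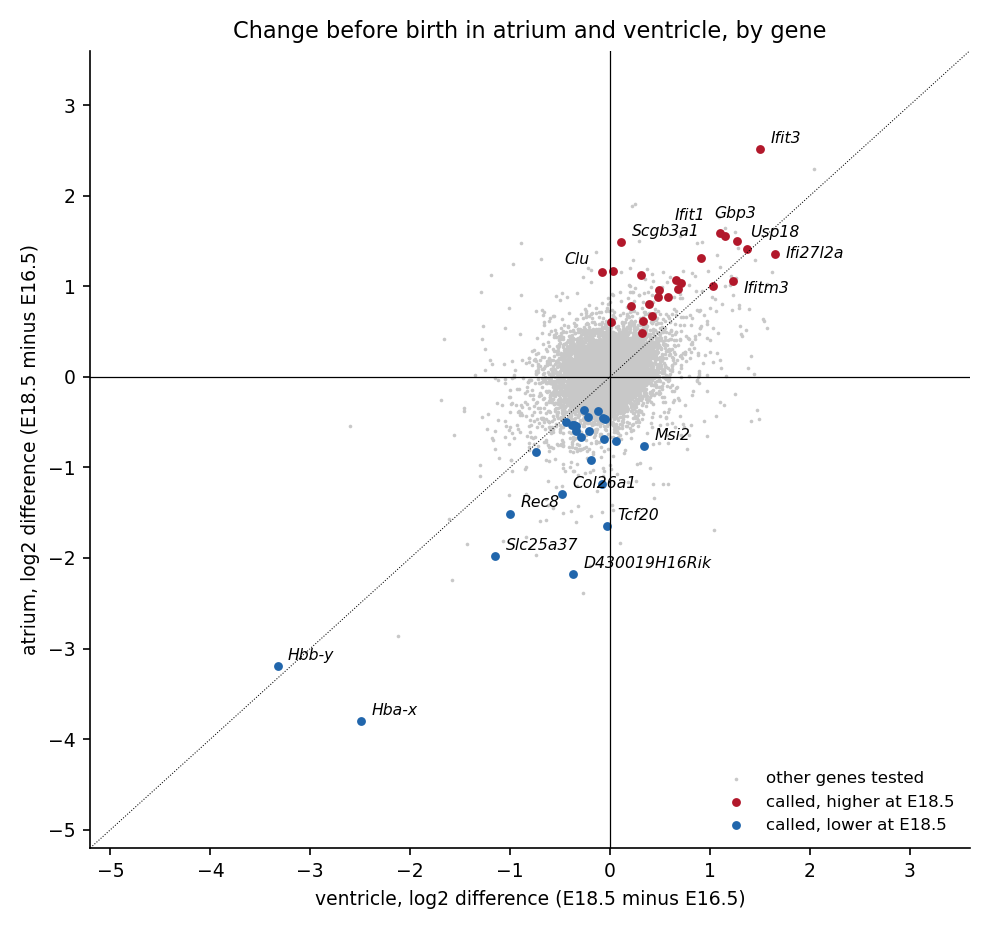
Log2 difference between E18.5 and E16.5 in the atrium (vertical axis) and in the ventricle (horizontal axis) for 12983 genes; red points are genes called higher and blue points genes called lower in the atrium, grey points are all others, and the dotted line marks equal differences. Interferon-response genes lay at the upper right and the embryonic globins Hba-x and Hbb-y at the lower left, while Scgb3a1 and Clu lay near 0 in the ventricle, at 0.11 and -0.08.

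Genes that define the atrial muscle did not pass the test. In this and the following paragraphs, members of a list that were not called are named after their values were seen. None of 18 atrial chamber genes was called (median 0.03). Myl7, the atrial regulatory light chain, read 13720.2, 11830.5 and 12980.5 in E18.5 atria, against 10778, 16821 and 13922 in E16.5 atria (difference -0.09 ± 0.22, adjusted p = 0.943). Nppa, atrial natriuretic peptide, averaged 12536 ± 1005 in E18.5 atria and 14175 ± 3331 in E16.5 atria, with a 95% interval of the difference of -0.54 to 0.23. Both genes lay near the highest intensity of their arrays, which was 12905 to 15080.2 on the E18.5 atrial arrays and 12532 to 18449 on the E16.5 ones, and how the signal responds there was not tested. Nr2f1, an atrial identity factor, read 1179, 1261 and 1338 in E18.5 atria, against 1968, 1651 and 2211 in E16.5 atria, with groups apart but no call (difference -0.61 ± 0.29, adjusted p = 0.494). Bmp10, a growth factor of the trabeculae and right atrium, had a difference of 0.41 ± 0.38 (adjusted p = 0.795), and Shox2, a factor of the sinus node, one of -0.41 ± 0.43 (adjusted p = 0.827).

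Most gene groups tied to maturation had medians near that of all genes. The 8 measured genes of creatine and adenylate kinases and myoglobin had a median of 0.31, with 6 above 0 and none called. Of all 12983 genes 6588 were above 0. Groups lay apart on the higher side in 4 of the 8, against 8.02% of all genes. The highest, Mb, or myoglobin, is also a ventricular chamber gene. It read 8824 on E18.5 atrial array 1, one of the arrays with high ventricular genes, and 1390.3 and 1087 on the other E18.5 arrays. In E16.5 atria it read 601, 3534 and 259. None of 29 fatty acid genes was called, with a median of 0.10 and 25 of 29 above 0; Ppara, a regulator of that pathway, had a difference of 0.48 ± 0.34 (adjusted p = 0.705) with values of 405, 443 and 342 in E18.5 atria, against 289, 271 and 272 in E16.5 atria. The 37 respiratory chain and TCA genes had a median of 0.00, the 24 glucose genes one of -0.01 and the 36 sarcomere genes one of 0.03, all without a call. In the ventricle, over the same days, those medians were 0.18 for both fatty acid and respiratory genes, 0.13 for glucose genes and 0.11 for sarcomere genes. Among the glucose genes Slc2a1, the fetal glucose transporter, had a difference of -0.57 (adjusted p = 0.131), and Slc2a4, the insulin-responsive one, 0.49 (adjusted p = 0.349). Of 29 ion channel and connexin genes none was called; Kcnk3, a background potassium channel of atrial muscle, had a difference of 1.13 (adjusted p = 0.139).

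No gene of the cell division lists was called. The 32 mitosis genes had a median of -0.04, the 29 DNA replication genes one of -0.15 and the 18 genes of G1 control one of -0.12. Cdkn1c, an imprinted inhibitor of cell division, had the lowest of these values, -0.72, with 4559.5, 4768.9 and 4646.8 in E18.5 atria, against 6201.3, 8142.6 and 8930.8 in E16.5 atria (adjusted p = 0.085). Among 16 imprinted and fetal growth genes Gpc3 alone was called and the median was -0.22. Of the 16, 14 lay below 0, while 6588 of all 12983 genes lay above it. Dlk1, a fetal Notch-like ligand, had a difference of -0.50 ± 0.20 (adjusted p = 0.37), and Igf2, the fetal growth factor, one of -0.09 ± 0.15 (adjusted p = 0.903). In the insulin-like growth factor axis 1 of 12 genes was called: Irs1, an adaptor of insulin and growth factor receptors, fell by 0.46 ± 0.10 (adjusted p = 0.029). It read 2560.0, 2774 and 2286 in E18.5 atria, against 2971, 3891 and 3667 in E16.5 atria, and its highest adjusted p with an array left out was 0.262.

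**Figure D5:**
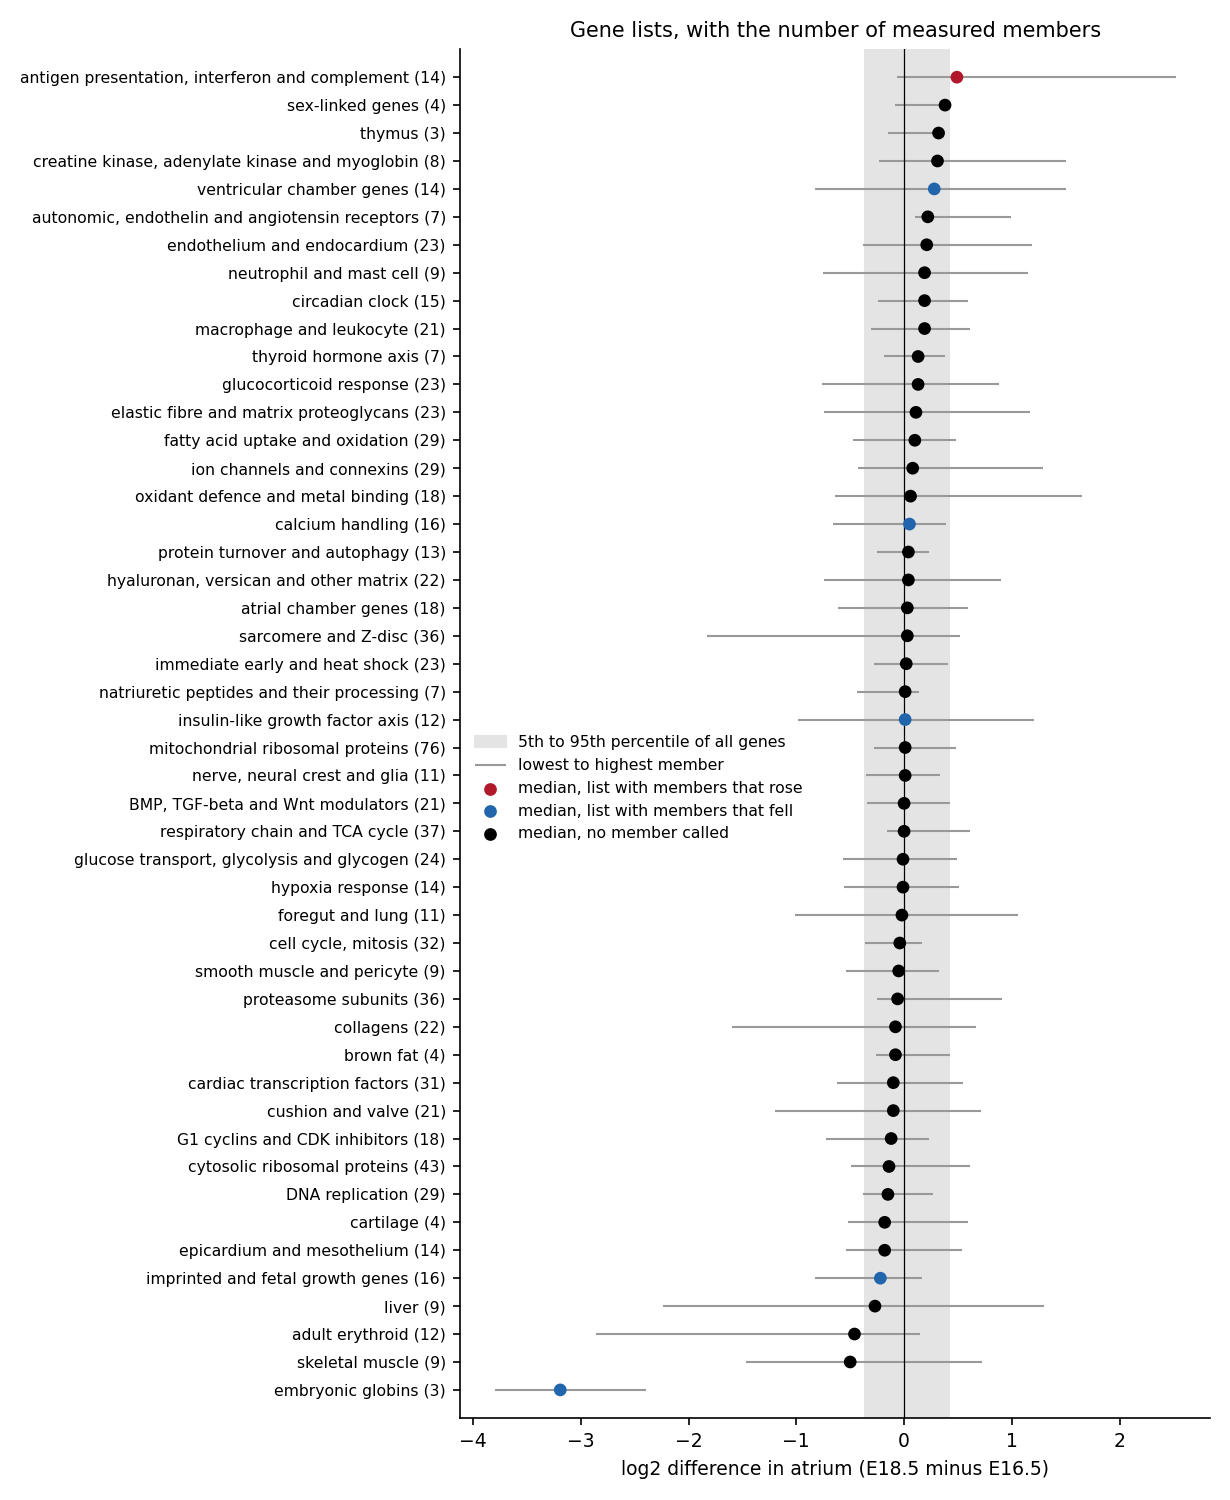
Median log2 difference in the atrium, E18.5 minus E16.5 (horizontal axis), of 48 gene lists (rows, with the number of measured members); dots are list medians, red where members rose, blue where members fell and black where none was called, grey lines run over the members and the shaded band holds the 5th to 95th percentile of all genes, -0.36 to 0.42. The embryonic globins lay lowest, at -3.19, the antigen presentation, interferon and complement list highest, at 0.49, and most others near 0.

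In all, 6 of the 48 lists held a called gene, and 8 of their 868 measured members were called, where 0.385% of all genes were. The other 42 of the 50 called genes were in no list. Hormone responses were among the lists without a call: 23 glucocorticoid-response genes had a median of 0.13, with Klf9, a factor induced by glucocorticoid, at 0.88 (adjusted p = 0.0761), Fkbp5 at 0.14 (adjusted p = 0.712) and Tsc22d3 at 0.12 (adjusted p = 0.829). The 15 clock genes had a median of 0.19 and the 7 thyroid axis genes 0.13. Of supporting cells, 23 endothelial genes had a median of 0.21, with 20 of 23 above 0, where 6588 of all 12983 genes were. The 22 collagens had a median of -0.08 and the 14 epicardial genes one of -0.18.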

How the data were processed

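RNA of 36 heart samples was measured on Affymetrix mouse arrays, 3 arrays in each of 12 groups of age and chamber. The deposited values are intensity per probe set on a linear scale; their 2% trimmed mean was 500.0 on each array. The authors' software and normalization of these intensities are not given in the sources used here. Groups were taken from the titles.

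Values were analysed as log2(intensity + 17). Of 45037 probe sets that were no controls, 27256 exceeded the median intensity of 171.8 on at least 3 arrays and were tested. limma 3.58.1 (R 4.3.3) was fitted to 12 group means with an intensity trend, giving 24 residual and 5.68 prior degrees of freedom, and its two-sided p-values received a Benjamini-Hochberg adjustment across the 27256. An adjusted p below 0.05 was a call. Errors beside log2 differences are standard errors of this fit. For each gene the probe set with the highest 36-array mean stood for it. The platform annotation gave 34945 probe sets 1 symbol, 932 several and 9160 none. The number of arrays limits the precision. The fit was tested on simulated data with independent noise for each probe set. Those data did not include the tissue differences between arrays described above.

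Named genes were the 15 largest called differences in each direction, up to 4 called members of a list in each direction, and a set of heart genes. The genes compared and the lists were chosen with earlier results of these data known. Marker scores are means over a list of log2 intensity minus the average of 36 arrays. Alternatives covered the scaling, pseudocount, filter, arrays in the fit, trend, array weights, a replicate block, the probe set rule and arrays left out. The replicate numbers come from the titles. Deviations of same-numbered atrial arrays of the E18.5 and E16.5 groups correlated at 0.01, -0.15 and 0.06, so the numbers were not taken to pair samples across days. Same-numbered atrial and ventricular arrays of a day were not compared in this way. The chamber difference was fitted without pairing them. Promoter windows came from RefSeq, build GRCm38.p6.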

Additional observations from a re-analysis of the deposited data

How the results depend on the processing

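The count of 86 called probe sets stayed within 1.5 times with other scalings (quantile 106, median 70), with other pseudocounts (84 at 1, 100 at 68), with other filters (68 with none, 69 with a stricter one) and without an intensity trend (72). It was 0 when only the arrays compared were fitted, where 2552 had an unadjusted p below 0.05 and fewer arrays informed the spread, and 172 with array weights. Leaving out each atrial array in turn gave 19 to 419. Without the arrays with high lung genes it was 9, and without those with high ventricular genes 22; both were added after seeing the data. With the replicate number as a block it was 67, and 38 of the 50 genes were still called. The chamber difference count was 0 except with array weights, which gave 1. Over 939 alternatives for single genes, 574 kept direction and call, 364 kept direction only, and 1 turned: Slc8a1 had a difference of 0.102 (adjusted p = 0.815) as the mean of its probe sets. The cause of these changes was not tested. Probe sets below the filter were not tested, and no depth is defined for arrays.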

Other observations

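E16.5 atrial array 1 was the array whose absence added most calls. Without it 221 genes were called, 125 higher and 96 lower at E18.5, and these included 22 list or family members that were not called with all arrays. They were read after their values were seen. Klf9, a glucocorticoid-induced factor, had a difference of 1.17 ± 0.22 (limma adjusted p = 0.00511), against 0.88 with all arrays (adjusted p = 0.0761). Kcnk3, a potassium channel of atrial muscle, had a difference of 1.55 ± 0.32 (adjusted p = 0.00931), against 1.13 with all arrays (limma adjusted p = 0.139). Kcnj5, another such channel, had one of 0.79 ± 0.16 (adjusted p = 0.00829), against 0.47 with all arrays (limma adjusted p = 0.368). Cp, the copper-carrying ferroxidase ceruloplasmin, had a difference of 1.97 ± 0.45 (adjusted p = 0.0208), against 1.65 with all arrays (limma adjusted p = 0.0761). Of interferon families, Gbp6, Gbp7, Irf7, Irgm2 and H2-D1 were added, at 3.13, 1.22, 1.56, 0.90 and 0.77. Among genes lower at E18.5, Slc4a1 had a difference of -3.67 ± 0.75 (adjusted p = 0.00898), Slc2a1 one of -0.70 ± 0.17 (adjusted p = 0.0349) and Cdkn1c one of -0.87 ± 0.20 (adjusted p = 0.0207). The array was left out for its place among the others in these same data, so these values are a description.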
